A study of Mus musculus with 4 samples.

Results

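Ccl19 and Ccl21a encode the mouse ligands of the chemokine receptor CCR7 that are made by stromal cells of the T-cell zone of lymph nodes. Both genes were taken by symbol from the list of 32285 features counted in every library. Each symbol stands beside 2 Ensembl identifiers in that list. ENSMUSG00000071005 (Ccl19) and ENSMUSG00000094686 (Ccl21a) hold nearly all of the molecules and are the ones meant by the symbols here. Single-cell RNA sequencing, which counts messenger RNA 3′ ends by unique molecular identifiers (UMIs, 1 per captured molecule), was available for 4 libraries of stromal cells of pooled lymph nodes (axillary, brachial, inguinal) from female C57BL/6 mice at 12 weeks of age. Nodes had been depleted of CD45+ leukocytes and sorted for live CD45- CD31- cells. The series title names the question, which is how dendritic cells instruct fibroblasts through the receptor Notch2. In Notch2 cKO 1 (batch 1, 6 pooled mice) Ccl19-Cre was combined with Notch2 fl/fl and the reporter R26R-EYFP. Notch2 cKO 2 (batch 2, 3 pooled mice) carried Ccl19-Cre and Notch2 fl/fl. Control 1 (batch 1, 6 pooled mice) carried Ccl19-Cre and R26R-EYFP, with no floxed Notch2. Control 2 (batch 2, 3 pooled mice) is labelled Notch2 fl/fl with no Cre by its genotype, although its title names Ccl19-Cre, and the genotype was followed.

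CCL19 and CCL21 are constitutive chemokines that guide naive T cells and mature dendritic cells, which carry CCR7, into and within the T zone. CCL21 has a charged C-terminal tail that holds it on heparan sulphate and other matrix, whereas CCL19 lacks this tail and stays soluble. In mouse the Ccl21 locus is duplicated. Ccl21a is the copy used by lymphoid stroma, and the other copies encode a protein that differs at a single residue. Fibroblastic reticular cells, the fibroblasts of the T zone, are the main stromal source of both chemokines in the node. The transgene Ccl19-Cre uses regulatory sequence of one of the 2 genes measured, so Notch2 was deleted in cells with a history of Ccl19 expression. Both batch 1 libraries carried the transgene, whereas in batch 2 it was in Notch2 cKO 2 only. Whether reads of the transgene can be counted as Ccl19 was not tested.

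Ccl19 and Ccl21a are neighbours on the minus strand of chromosome 4 (chr4:42754525-42756577 and chr4:42772860-42773993 in build GRCm38, which is mm10). The RefSeq promoter windows (GRCm38.p6, 250 bases before to 50 bases after the start site) are shown because both genes were highest in the same cell classes. They are written 5′ to 3′ on the strand of the gene, and capitals mark ATAAAT, the letters shared by both windows at the place of a TATA-like element in Ccl21a.
Ccl19, chr4:42756316-42756615, minus strand: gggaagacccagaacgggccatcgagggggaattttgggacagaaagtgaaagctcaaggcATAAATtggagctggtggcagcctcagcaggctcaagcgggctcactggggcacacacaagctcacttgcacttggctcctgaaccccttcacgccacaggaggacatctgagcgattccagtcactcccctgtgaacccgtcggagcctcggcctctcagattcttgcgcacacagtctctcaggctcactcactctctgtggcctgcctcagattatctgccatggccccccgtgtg
Ccl21a, chr4:42773942-42774241, minus strand: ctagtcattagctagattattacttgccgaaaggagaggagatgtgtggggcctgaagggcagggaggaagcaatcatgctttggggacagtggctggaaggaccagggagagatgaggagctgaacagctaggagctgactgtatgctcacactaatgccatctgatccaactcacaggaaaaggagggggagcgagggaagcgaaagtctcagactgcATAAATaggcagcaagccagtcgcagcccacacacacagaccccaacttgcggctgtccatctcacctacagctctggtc
The letters ATAAAT begin at base -30 from the start in Ccl21a and at base -189 in Ccl19, and 13.7% of all 32851 RefSeq promoter windows of this length hold them on at least 1 strand. The RefSeq start site of Ccl19 lies 212 bases inside the annotated gene interval given above, so 212 of the 250 bases shown before it, the capitals included, fall within that interval, whereas for Ccl21a the same holds for 2 bases and not for the capitals. TGGGAA, the core letters of RBPJ sites that Notch receptors act through, are in neither window on either strand and in 25.6% of all windows. Letters of the NF-kB consensus are also in neither window and in 4.51% of all windows. These are matches of letters in 300 bases and say nothing of sites elsewhere.

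Near-identical copies limit what a Ccl21a count can tell apart. The transcript Ccl21a-201 (870 bases, coding bases 76 to 477) and Gm21541-201 of the same length differ at 6 bases, an identity of 99.3%, and 3 of these lie in the last 300 bases, where 3′ reads start. Counted from 1 at the 5′ end, the changes from Ccl21a to Gm21541 are G24A, T159A, C269T, C640T, T812C and G856A. The coding stretch that holds 2 of them is shown with these bases in capitals.
Ccl21a: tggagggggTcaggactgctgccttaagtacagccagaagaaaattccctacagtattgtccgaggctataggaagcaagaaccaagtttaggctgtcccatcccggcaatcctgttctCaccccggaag
Gm21541: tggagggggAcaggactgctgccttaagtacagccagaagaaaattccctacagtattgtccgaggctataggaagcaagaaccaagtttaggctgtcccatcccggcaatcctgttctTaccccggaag
Over all barcodes of the 4 libraries, Ccl21a had 2511410 UMIs and Ccl19 660464. The copies had far fewer, with 1253 UMIs for Gm21541, 114 for the second Ccl21a identifier, 32 for the first Ccl21b identifier, 22 for Gm13304, 13 for the first Ccl21c identifier and 8 for the second Ccl19 identifier. Counts of these copies are uncertain, since reads that match several copies could have been dropped or split.

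Libraries held 8491 barcodes in Notch2 cKO 1, 13452 in Notch2 cKO 2, 9891 in control 1 and 18482 in control 2, with medians of 2834, 7243, 2040 and 5787 UMIs in the same order, so batch 2 held more UMIs per barcode. The batches also differ in the Cell Ranger version of their headers, and read depth was not analysed here. Pairs of libraries shared 21 to 57 cell barcodes. The deleted gene was checked before the ligands. Notch2 had 19.1 CPM (the gene's UMIs scaled to a common total of all UMIs in the cell set) in fibroblast-like cells of Notch2 cKO 1 and 39.2 CPM in Notch2 cKO 2, against 38.9 CPM in control 1 and 58.7 CPM in control 2 (log2 -0.85 ± 0.19 SE, adjusted p = 0.091, edgeR). Counts of 3′ ends may lie outside the floxed exon, so this level does not measure deletion. Of 6 measured Notch targets, 4 fell, beside 0.633% of all genes, as given with the pathway lists. Fibroblast-like cells made up 96.5% and 86.2% of the kept cells in Notch2 cKO 1 and 2, and 98.3% and 85.5% in controls 1 and 2. Mural cells (pericytes and smooth muscle, not sources of either chemokine) numbered 853 in Notch2 cKO 2, 30 in control 1 and 1445 in control 2, and Schwann cells numbered 73 in Notch2 cKO 2 and 91 in control 2. Notch2 cKO 1 had 61 mural cells with high Dcn only, a fibroblast gene, and these stand in for its mural background. Their Dcn level was 3883 CPM. The 30 mural cells of control 1 also held 2154 CPM of Dcn, against 128 to 2020 CPM in the mural clusters of batch 2.

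Within fibroblast-like cells, 17 clusters were made without either ligand, their copies or the genes called between genotypes. They were named by markers that leave out the ligands. T-zone reticular-like cells were clusters 0, 1, 7 and 8, with 6 or 7 of 8 T-zone markers such as Grem1, Bst1 and Il7. Most of this class was cluster 0 in Notch2 cKO libraries (2600 of 4038 cells in Notch2 cKO 1 and 3199 of 4998 in Notch2 cKO 2) and cluster 1 in controls (1499 of 1746 cells in control 1 and 2265 of 2821 in control 2). Cluster 3 also reached 6 of 8 T-zone markers and was left unnamed because of 1 gene. With the genes called between genotypes included, its leading genes were Slc7a11, Il13ra2, Stc2, Frmd5, Ubd and then Madcam1, which is in the marginal reticular list, and none of its 10 leading genes is in the T-zone list. With the called genes left out, its 10 leading genes, such as Slc7a11, Ubd and Stmn2, hold no marker of another list, so T-zone results are also given with cluster 3 in the class. Clusters 0, 7 and 8 likewise hold no T-zone marker among their 10 leading genes, with or without the called genes. The other classes were Cxcl9-high or interferon reticular-like (cluster 9), follicular dendritic-like (clusters 13 and 16), medullary-type-like (clusters 2, 4, 10 and 11) and adventitial-like (cluster 14) cells. Medullary-type-like cluster 2 held as many leading genes of the marginal reticular list (Hamp2, Tnfsf11 and Cxcl13) as of its own (Car3, Stc1 and Inmt) with the called genes left out, and with them its own list gained Cyp2f2. Medullary-type-like cluster 10 held as many of the adventitial list (Cd34 and Ly6c1) as of its own (Car3 and Stc1), with or without the called genes. The name of cluster 10 is therefore less certain.

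Averaged over libraries, both chemokine genes were highest in cluster 3, which overlapped the next cluster in range. Ccl19 there had 2974 CPM in Notch2 cKO 1 and 6701 CPM in Notch2 cKO 2, against 7875 CPM in control 1 and 9273 CPM in control 2. Ccl21a in cluster 3 had 19255 CPM in Notch2 cKO 1 and 24304 CPM in Notch2 cKO 2, against 19209 CPM in control 1 and 19466 CPM in control 2. The Ccl19 level of both Notch2 cKO libraries thus lay below both controls, whereas the Ccl21a levels overlapped. Over 12 clusters compared further on, this one included, 9.56% of pairs of a gene and a cluster showed that Ccl19 order.

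Among named classes, the order of Ccl19 levels averaged over libraries began with Cxcl9-high or interferon reticular-like cells at 5821 CPM (1645 to 9315 over the 4 libraries). T-zone reticular-like cells followed at 2267 CPM (1173 to 2930), then follicular dendritic-like cells at 1653 CPM (1081 to 2617) and medullary-type-like cells at 974.7 CPM (593 to 1304). Each of these classes overlapped its neighbour in the range over libraries. Mural cells, next in order at 463 CPM (341 to 567 over 3 libraries), did not overlap medullary-type-like cells. Leukocytes had 353 CPM, Schwann cells 139 CPM and adventitial-like cells 84.1 CPM (29.4 to 125), the lowest of all. Ccl21a put T-zone reticular-like cells first at 13769 CPM (11888 to 15607), with Cxcl9-high or interferon reticular-like cells close behind at 13583 CPM (11466 to 16560) and overlapping. Follicular dendritic-like cells had 7437 CPM of Ccl21a over a wide range (1703 to 12442), medullary-type-like cells 2023 CPM (1793 to 2598) and adventitial-like cells 312 CPM (181 to 583). Leukocytes, at 1619 CPM of Ccl21a (536 to 2488), overlapped medullary-type-like cells, and mural cells had 1106 CPM (1007 to 1179 over 3 libraries). Follicular dendritic-like cells were mostly cluster 13 in Notch2 cKO 1 and both controls, whereas cluster 16 held 275 of 538 in Notch2 cKO 2, and control 1 had 42 cells in all.

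**Figure D1:**
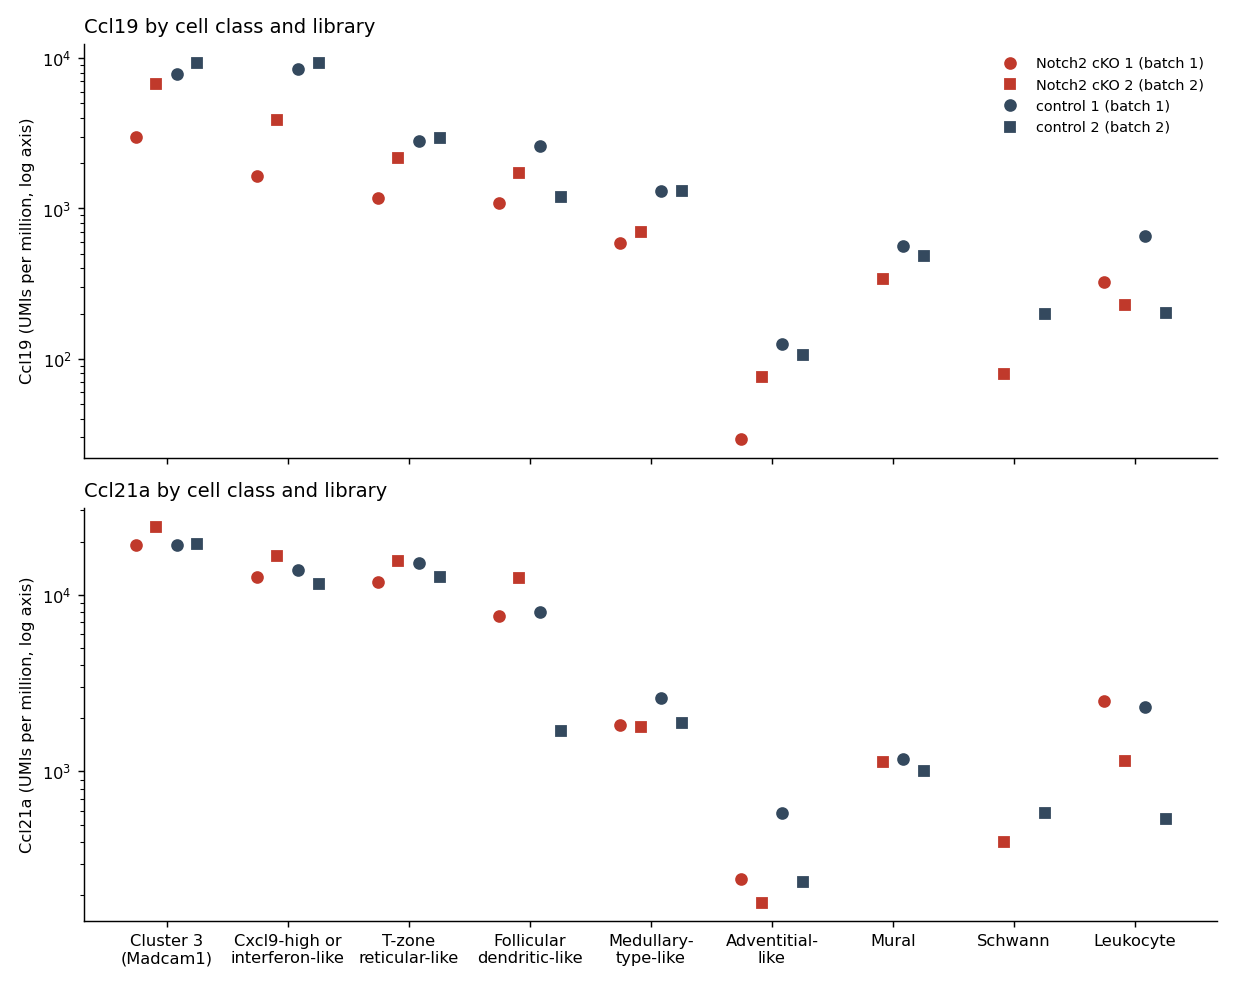
Ccl19 (upper panel) and Ccl21a (lower panel) in CPM on a log axis, by cell class, with 1 point per library, Notch2 cKO in red left of control in dark blue, circles for batch 1 and squares for batch 2. Both Notch2 cKO points lie below both control points for Ccl19 in cluster 3 and the Cxcl9-high or interferon, T-zone, medullary-type and adventitial-like classes, whereas for Ccl21a the groups overlap in all of these but the medullary-type-like class.

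A floor under both genes was judged in cells that should lack them, and its source was not tested. To compare cells of unequal depth, each cell was thinned to 1000 UMIs. In mural cells, at least 1 Ccl19 UMI was then found in 22.4% of cells of Notch2 cKO 2, against 26.7% in control 1 and 35.4% in control 2. Mural cells with a Ccl21a UMI made up 38.1% in Notch2 cKO 2, 36.7% in control 1 and 50.6% in control 2. In Schwann cells, 4.11% held a Ccl19 UMI and 35.6% a Ccl21a UMI in Notch2 cKO 2, against 23.1% and 46.2% in control 2. A lone UMI is therefore no sign of expression. Median depth before thinning was 3892 UMIs in mural and 3200 UMIs in Schwann cells of Notch2 cKO 2, and 3290 and 2637 UMIs in those of control 2. The Ccl19 level of mural cells was itself lower in Notch2 cKO 2 (341 CPM) than in control 2 (480 CPM). With Dcn-high mural cells included it was 413 CPM and 347 CPM in Notch2 cKO 1 and 2, against 567 CPM and 468 CPM in controls 1 and 2, so the groups did not overlap there either. The value of Notch2 cKO 1 rests on 43 UMIs (95% interval 299 to 557 CPM). That of control 1 rests on 25 UMIs (367 to 837 CPM), so the order over all libraries lies within counting error. In batch 2 alone the 95% intervals did not overlap (330 to 364 CPM in Notch2 cKO 2, 451 to 485 CPM in control 2).

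Set against mural cells of the same library, Ccl19 in T-zone reticular-like cells stood 2.84-fold above them in Notch2 cKO 1 and 6.38-fold in Notch2 cKO 2, against 4.92-fold in control 1 and 6.10-fold in control 2. Ccl21a in these cells stood 4.87-fold above mural cells in Notch2 cKO 1 and 13.8-fold in Notch2 cKO 2, against 12.8-fold in control 1 and 12.5-fold in control 2. The 61 Dcn-high mural cells of Notch2 cKO 1 held 2442 CPM of Ccl21a, against 920 to 1179 CPM in mural cells of the other libraries with Dcn-high cells included. Their 413 CPM of Ccl19 lay within the range of the other libraries, and the T-zone reticular-like cells of Notch2 cKO 1, at 1173 CPM, had the lowest Ccl19 level of the 4 libraries. Medullary-type-like cells were 1.43-fold and 2.06-fold above mural for Ccl19 in Notch2 cKO 1 and 2, against 2.29-fold and 2.72-fold in controls 1 and 2. Their Ccl21a was 0.749 and 1.58 of the mural level in Notch2 cKO 1 and 2, against 2.20 and 1.86 in controls 1 and 2. Cluster 10 of this class lay below mural cells for Ccl21a, at 0.218 and 0.573 of their level in Notch2 cKO 1 and 2 and 0.548 and 0.444 in controls 1 and 2. Adventitial-like cells lay below mural cells in all 4 libraries for both genes, for Ccl19 at 0.0711 and 0.221 of the mural level in Notch2 cKO 1 and 2 and at 0.221 and 0.221 in controls 1 and 2, and are read as background. Clusters 6 (led by Mgp and Igfbp6) and 15 (led by Col15a1) were also below mural cells for both genes in all 4 libraries. Schwann cells lay at 0.231 and 0.414 of the mural Ccl19 level in Notch2 cKO 2 and control 2, so the mural level is not the lowest background.

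Per cell, the 2 genes differed in how they were spread. In thinned T-zone reticular-like cells, Ccl19 had a median of 1 UMI per 1000 in Notch2 cKO 1 and 2 in Notch2 cKO 2, against 2 in both controls, and its 90th percentile was 3 and 5 UMIs in Notch2 cKO 1 and 2, against 6 in both controls. Ccl21a had medians of 11 and 13 UMIs per 1000 in Notch2 cKO 1 and 2, against 14 and 9 in controls 1 and 2. Cluster 3 had higher medians than the T-zone class for both genes in every library. Its Ccl19 median was 2 UMIs in Notch2 cKO 1 and 5 UMIs in Notch2 cKO 2, against 7 UMIs in both controls, and its Ccl21a median was 18 and 24 UMIs in Notch2 cKO 1 and 2, against 19 UMIs in both controls. Cells at the 99th percentile of T-zone reticular-like cells held 6 and 9 Ccl19 UMIs in Notch2 cKO 1 and 2, against 11.6 and 11.8 in controls 1 and 2.

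**Figure D2:**
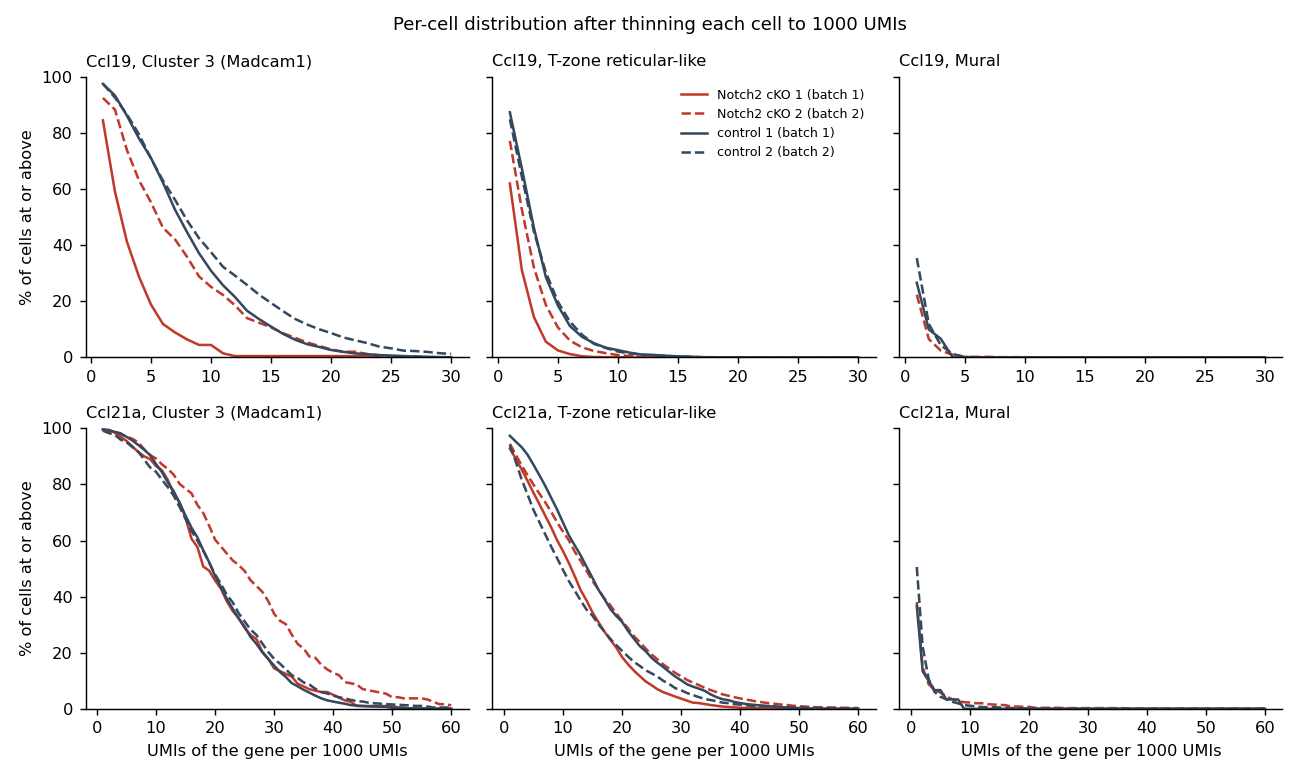
Share of cells (vertical axis, %) with at least the number of UMIs on the horizontal axis after thinning each cell to 1000 UMIs, for Ccl19 (upper row) and Ccl21a (lower row) in cluster 3, T-zone reticular-like and mural cells, with 1 line per library (Notch2 cKO red, control dark blue, batch 1 solid, batch 2 dashed, and no mural line for Notch2 cKO 1). In cluster 3 and T-zone reticular-like cells the red Ccl19 lines begin below the dark blue lines, for the T-zone class at 62.1% and 77.3% against 87.5% and 84.97%, while the Ccl21a lines cross.

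In all fibroblast-like cells thinned to 1000 UMIs, 52.4% of cells in Notch2 cKO 1 and 59.5% in Notch2 cKO 2 held a Ccl19 UMI, against 77.1% in control 1 and 66.2% in control 2. In T-zone reticular-like cells these shares were 62.1% and 77.3% in Notch2 cKO 1 and 2, against 87.5% and 84.97% in controls 1 and 2. Both Notch2 cKO libraries lay below both controls in either set, with mean differences of -15.7 and -16.6 percentage points and p = 0.333 by a two-sided exact permutation test, the smallest p that 2 libraries against 2 allow. Without thinning the T-zone reticular-like shares were 90.4% and 97.5% in Notch2 cKO 1 and 2, against 96.0% and 97.4% in controls 1 and 2, and the groups overlapped. The share with a Ccl21a UMI in T-zone reticular-like cells was 92.8% and 94.5% in Notch2 cKO 1 and 2, against 97.4% and 94.0% in controls 1 and 2 (exact permutation p = 0.667, two-sided). Counted instead as cells above the 95th percentile of mural cells of the same library, Ccl19 was found in 31.2% and 32.2% of T-zone reticular-like cells of Notch2 cKO 1 and 2, against 46.3% and 44.9% in controls 1 and 2. By the same count Ccl21a was found in 56.2% and 76.8% of these cells of Notch2 cKO 1 and 2, against 87.1% and 70.9% in controls 1 and 2, with overlap. The thresholds differed by library, at 1 and 2 UMIs per 1000 for Ccl19 in Notch2 cKO 1 and 2, against 2.55 and 2 in controls 1 and 2, and at 9 and 5 UMIs for Ccl21a in Notch2 cKO 1 and 2, against 4.1 and 4 in controls 1 and 2, and that of Notch2 cKO 1 comes from Dcn-high cells. Clopper-Pearson 95% intervals of these shares are a few percentage points wide, for example 60.5% to 63.6% for Ccl19 in thinned T-zone reticular-like cells of Notch2 cKO 1, and cover counting error only.

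Most cells with 1 ligand also held the other. Among thinned T-zone reticular-like cells with Ccl19, 93.4% and 95.2% in Notch2 cKO 1 and 2 also held Ccl21a, against 97.3% and 94.7% in controls 1 and 2. Cells with both made up 57.9% and 73.5% of T-zone reticular-like cells of Notch2 cKO 1 and 2, against 85.1% and 80.4% in controls 1 and 2. Cells with Ccl21a and no Ccl19 UMI made up 34.9% and 20.9% in Notch2 cKO 1 and 2, against 12.3% and 13.6% in controls 1 and 2 (mean difference 14.97 percentage points, exact permutation p = 0.333, two-sided). Cells with Ccl19 and no Ccl21a UMI stayed at 4.11% and 3.70% in Notch2 cKO 1 and 2, against 2.35% and 4.54% in controls 1 and 2. The share with both was close to that given by independent draws at the same 2 frequencies within the class and library (57.6% and 73.0% in Notch2 cKO 1 and 2, 85.2% and 79.9% in controls 1 and 2).

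Across T-zone reticular-like cells of 1 library, the log2 levels of Ccl19 and Ccl21a per 1000 UMIs were weakly correlated, with Pearson's r of 0.0619 over 4038 cells in Notch2 cKO 1 and 0.138 over 4998 cells in Notch2 cKO 2, against 0.154 over 1746 cells in control 1 and 0.254 over 2821 cells in control 2. Over all fibroblast-like cells, which differ in class, r was 0.314 and 0.485 in Notch2 cKO 1 and 2, against 0.566 and 0.587 in controls 1 and 2. These are descriptions of sparse counts within libraries. In mural cells 9.73% in Notch2 cKO 2, 13.3% in control 1 and 20.3% in control 2 held both ligands.

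**Figure D3:**
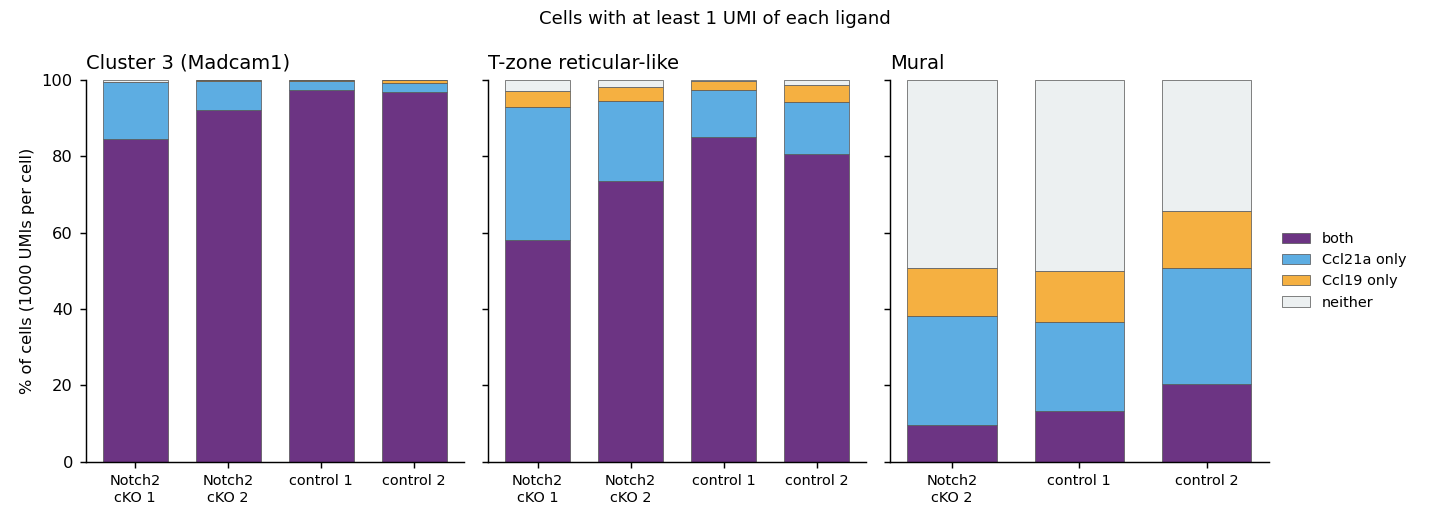
Share of cells (%) with both ligands, Ccl21a only, Ccl19 only or neither, at 1000 UMIs per cell, in cluster 3, T-zone reticular-like and mural cells, 1 bar per library with Notch2 cKO left of control. Cells with Ccl21a only fill 34.9% and 20.9% of the T-zone reticular-like bars of Notch2 cKO 1 and 2, against 12.3% and 13.6% in controls 1 and 2.

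Summed over all fibroblast-like cells, Ccl19 had 1053 CPM in Notch2 cKO 1 and 1942 CPM in Notch2 cKO 2, against 3983 CPM in control 1 and 3424 CPM in control 2. The groups did not overlap, and Ccl19 in Notch2 cKO was 0.264 of its control in batch 1 and 0.567 in batch 2. The fitted log2 fold change was -1.41 ± 0.39 (SE), with adjusted p = 0.178 over 17366 genes (quasi-likelihood test of edgeR with a batch term, 2 libraries per group), which does not pass the threshold of 0.05. Ccl21a had 9352 CPM in Notch2 cKO 1 and 12071 CPM in Notch2 cKO 2, against 10999.8 CPM in control 1 and 8075 CPM in control 2 (log2 0.13 ± 0.47 SE, adjusted p = 0.977, edgeR). Its groups overlapped, and the batches went in opposite directions (log2 -0.23 in batch 1 and 0.58 in batch 2). In this fit 1.55% of genes were called, 0.633% lower and 0.916% higher in Notch2 cKO, and neither ligand was among them. Before adjustment 1 of the 2 ligands, Ccl19, had an edgeR p under 0.05, as did 1917 of all 17366 genes. DESeq2 with the same batch term called Ccl19 (log2 -1.44, adjusted p = 1.18e-04), as did edgeR with no filter on low counts (log2 -1.40, adjusted p = 0.0305). These fits called 450 of 13662 and 756 of 25591 genes in that order. Of 13631 genes with a mean of at least 1 CPM, 8.66% had both Notch2 cKO libraries below both controls and 17% had them above.

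Within classes, Ccl19 was lower in both Notch2 cKO libraries than in both controls in T-zone, medullary-type and Cxcl9-high or interferon reticular-like cells, and not in follicular dendritic-like cells. Adventitial-like cells, at background, also did not overlap. The share of all genes with the same order is given beside the T-zone, medullary-type and Cxcl9-high or interferon reticular-like classes. It is not given for adventitial-like or mural cells. Ccl19 of mural cells, with Dcn-high cells included, had this order too. The order over all libraries lies within counting error because of the batch 1 values, whereas the batch 2 intervals did not overlap. T-zone reticular-like cells had 1173 CPM in Notch2 cKO 1 and 2176 CPM in Notch2 cKO 2, against 2791 CPM in control 1 and 2929.8 CPM in control 2 (log2 -0.89 ± 0.37 SE, adjusted p = 0.128, edgeR). Here 8.52% of 14589 genes were called, 3.89% lower and 4.63% higher. These 1243 calls became 0, 0, 0 and 13 when 1 library was left out and no batch term could be used, and 0 with all libraries and no batch term. The 269 calls of all fibroblast-like cells became 0, 0, 0 and 17 and also 0. In the T-zone class 10.4% of 13361 genes with a mean of at least 1 CPM had both Notch2 cKO libraries below both controls (20.2% above). Medullary-type-like cells had 593 CPM and 701 CPM in Notch2 cKO 1 and 2, against 1300.1 CPM and 1304 CPM in controls 1 and 2 (log2 -1.09 ± 0.32 SE, adjusted p = 0.088, edgeR, with 1.83% of genes called and 6.96% of genes with both Notch2 cKO libraries below both controls). After the mural level of each library was taken off, the medullary-type-like value was log2 -1.61. Cxcl9-high or interferon reticular-like cells had the largest difference among classes, with 1645 CPM and 3855 CPM in Notch2 cKO 1 and 2, against 8469 CPM and 9315 CPM in controls 1 and 2. There Ccl19 passed the test (log2 -1.92 ± 0.43 SE, adjusted p = 0.044, edgeR), with 2.42% of 10598 genes called and 12.1% with both Notch2 cKO libraries below both controls. That call was lost without any 1 of the 4 libraries (adjusted p 0.13 to 1.00) and in 5 of the other settings.

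In follicular dendritic-like cells the batches went in opposite directions for Ccl19 (log2 -1.28 in batch 1 and 0.53 in batch 2). Cluster 13 of that class alone was lower in both batches (log2 -1.28 and -0.90) without overlap, with 41 cells in control 1. It is among the clusters compared further on, where the share of all genes is given. Cluster 16 had 3685 CPM over 275 cells in Notch2 cKO 2 and 3784 CPM over 22 cells in control 2. In adventitial-like cells both levels were at background (29.4 CPM and 75.5 CPM in Notch2 cKO 1 and 2, against 125 CPM and 106 CPM in controls 1 and 2). Ccl21a passed the edgeR test in none of the 5 named classes. Its unadjusted p was under 0.05 in 2 of them, follicular dendritic-like cells (log2 1.39 ± 0.64 SE, adjusted p = 0.381, edgeR, with 2.53% of genes called) and adventitial-like cells (log2 -0.85 ± 0.32 SE, adjusted p = 0.606, edgeR, with 0.136% called). Of all genes, 1013 of 10233 and 337 of 7347 had an unadjusted p under 0.05 in these 2 classes. DESeq2 also called Ccl21a in 0 of the 5, whereas it called Ccl19 in T-zone reticular-like (adjusted p = 0.0138), medullary-type-like (adjusted p = 0.0024) and Cxcl9-high or interferon reticular-like cells (adjusted p = 4.92e-06). Of all genes with an adjusted p, DESeq2 called 457 of 13174, 66 of 10031 and 116 of 10392 in the same order. It called 11 of 10034 in follicular dendritic-like and 0 of 7347 in adventitial-like cells. In T-zone reticular-like cells Ccl21a had 11888 CPM in Notch2 cKO 1 and 15607 CPM in Notch2 cKO 2, against 15039 CPM in control 1 and 12541 CPM in control 2 (log2 -0.06 ± 0.47 SE, adjusted p = 0.982, edgeR). The copy Gm21541 was at 10.6 CPM and 5.95 CPM in Notch2 cKO 1 and 2, against 10.1 CPM and 1.55 CPM in controls 1 and 2 (log2 0.97 ± 0.32 SE, adjusted p = 0.034, edgeR), a call that DESeq2 did not make and that is uncertain because of its near identity with Ccl21a.

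Clusters were then compared singly. In the 15 clusters with at least 20 cells in every library, Ccl19 was lower in the Notch2 cKO library of both batches in 14, and both Notch2 cKO libraries lay below both controls in 12. These include clusters 6, 14 and 15, whose levels lay below mural cells. Without them, a choice made after the data were seen, Ccl19 was lower in both batches in 11 of 12 clusters and without overlap in 10, whereas 9.56% of all pairs of a gene and one of these clusters showed that order. The median log2 difference over the 12 clusters was -1.14 in batch 1 and -0.63 in batch 2. Ccl21a was lower in both batches in 1 of the 12, higher in both in 2 and mixed in 9, with medians of -0.15 in batch 1 and 0.30 in batch 2. Cluster 1, the main T-zone cluster of controls, had 1362 CPM of Ccl19 in Notch2 cKO 1 and 2783 CPM in Notch2 cKO 2, against 2862 CPM in control 1 and 3133 CPM in control 2 (log2 -0.65 ± 0.39 SE, adjusted p = 0.819, edgeR). Cluster 3 gave log2 -1.004 ± 0.453 SE for Ccl19 (adjusted p = 0.83) and 0.09 ± 0.53 SE for Ccl21a (adjusted p = 0.999, edgeR). Of clusters 1, 3, 7 and 8, none gave an adjusted p under 0.05 for either gene with edgeR, and 1 of these 8 tests, Ccl19 in cluster 3, had an unadjusted p under 0.05. Of all genes, 877 of 11519, 693 of 11994, 715 of 10258 and 694 of 9557 had such an unadjusted p in the same order of clusters. The share of genes called in these fits was 1.96%, 0.217%, 0.77% and 1.16% in the same order of clusters. DESeq2 called 0 of the 8, with an adjusted p of 0.529 for Ccl19 in cluster 3.

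The clusters that held the chemokine molecules differed by genotype in the main clustering, which used Harmony over batches. Cluster 3 made up 2.84% and 2.45% of fibroblast-like cells of Notch2 cKO 1 and 2, against 25.7% and 13.9% in controls 1 and 2. It held 8.68% and 11.01% of the Ccl19 UMIs of fibroblast-like cells of Notch2 cKO 1 and 2, against 62.4% and 53.7% in controls 1 and 2. Of Ccl21a UMIs it held 6.33% and 6.43% in Notch2 cKO 1 and 2, against 55.2% and 47.8% in controls 1 and 2. Cluster 0 stood in the opposite position, with 36.8% and 32.4% of cells of Notch2 cKO 1 and 2, against 0.17% and 0.199% in controls 1 and 2. It held 52.4% and 52.5% of Ccl19 UMIs and 62.3% and 64.5% of Ccl21a UMIs in Notch2 cKO 1 and 2. None of these shares overlapped between groups (exact permutation p = 0.333, two-sided, the smallest that 2 against 2 allow). The T-zone class held 57.1% (Notch2 cKO 1), 50.6% (Notch2 cKO 2), 21.1% (control 1) and 22.5% (control 2) of fibroblast-like cells. When Harmony was run over libraries instead of batches, this gap was much narrower. The class then held 2595 of 7074 cells (Notch2 cKO 1) and 3730 of 9871 (Notch2 cKO 2). The controls had 2688 of 8257 (control 1) and 3792 of 12565 (control 2). Shares of single clusters were not tested in that setting.

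**Figure D4:**
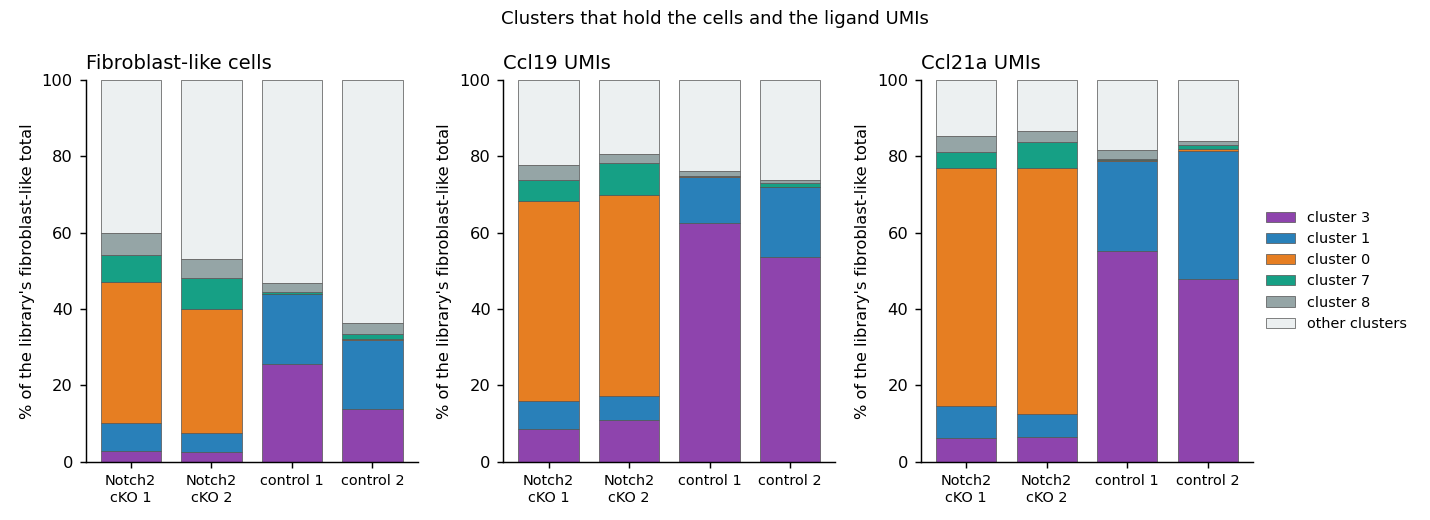
Share (%) of fibroblast-like cells, of their Ccl19 UMIs and of their Ccl21a UMIs that lay in clusters 3, 1, 0, 7 and 8 and in the other clusters, 1 bar per library with Notch2 cKO left of control. Cluster 3 (purple) holds 8.68% and 11.01% of Ccl19 UMIs in Notch2 cKO 1 and 2, against 62.4% and 53.7% in controls 1 and 2, and cluster 0 (orange) holds 52.4% and 52.5% in Notch2 cKO 1 and 2, against 0.169% and 0.254% in controls 1 and 2.

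Differences in cluster shares and differences within clusters both entered the summed level. When each Notch2 cKO library was given the cluster shares of its control, Ccl19 in Notch2 cKO was 0.385 of control in batch 1 (0.264 as observed) and 0.703 in batch 2 (0.567 as observed). Ccl21a was 0.945 of control in batch 1 and 1.23 in batch 2 by the same step, against 0.850 and 1.49 as observed. With cluster 3 left out, an alternative chosen after the data were seen, Ccl19 in the remaining fibroblast-like cells was 992 CPM and 1786 CPM in Notch2 cKO 1 and 2, against 2187 CPM and 1977 CPM in controls 1 and 2 (log2 -0.68 ± 0.34 SE, adjusted p = 0.513, edgeR, with 1.45% of genes called). Ccl21a in the same cells was 9038 CPM and 11668 CPM in Notch2 cKO 1 and 2, against 7210 CPM and 5256 CPM in controls 1 and 2 (log2 0.70 ± 0.44 SE, adjusted p = 0.635, edgeR). There both batches gave a positive log2 ratio of Ccl21a (0.33 and 1.15) and the groups did not overlap, unlike in all fibroblast-like cells, and 18.2% of genes lay above both controls in this way and 8.76% below them. With cluster 3 joined to the T-zone class, also chosen after the data were seen, Ccl19 had 1258 CPM and 2397 CPM in Notch2 cKO 1 and 2, against 5944 CPM and 5845 CPM in controls 1 and 2, and passed the test (log2 -1.82 ± 0.40 SE, adjusted p = 0.034, edgeR, with 4.33% of 15501 genes called). The size of the difference in T-zone cells thus depends on where cluster 3 is placed.

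The mix of the 2 ligands separated the groups in most cell sets. UMIs of 3′ ends are not scaled by transcript length and the genes may be captured unequally, so the Ccl19 share of both ligands is used only to compare libraries. In all fibroblast-like cells Ccl19 made up 10.1% and 13.9% of the UMIs of both genes in Notch2 cKO 1 and 2, against 26.6% and 29.8% in controls 1 and 2. The mean difference was -16.2 percentage points, at -16.5 in batch 1 and -15.9 in batch 2 (exact permutation p = 0.333, two-sided). The T-zone reticular-like share was 8.98% and 12.2% in Notch2 cKO 1 and 2, against 15.7% and 18.9% in controls 1 and 2. Within cluster 3 it was 13.4% and 21.6% in Notch2 cKO 1 and 2, against 29.1% and 32.3% in controls 1 and 2. The widest gap among classes lay in Cxcl9-high or interferon reticular-like cells, with 11.6% and 18.9% in Notch2 cKO 1 and 2, against 38.1% and 44.8% in controls 1 and 2. After the mural level was taken off, the mean difference over all fibroblast-like cells was -17.0 percentage points. In mural cells themselves the share was 23.1% in Notch2 cKO 2, against 32.5% in control 1 and 32.3% in control 2, and what part free RNA has in the class values was not tested.

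**Figure D5:**
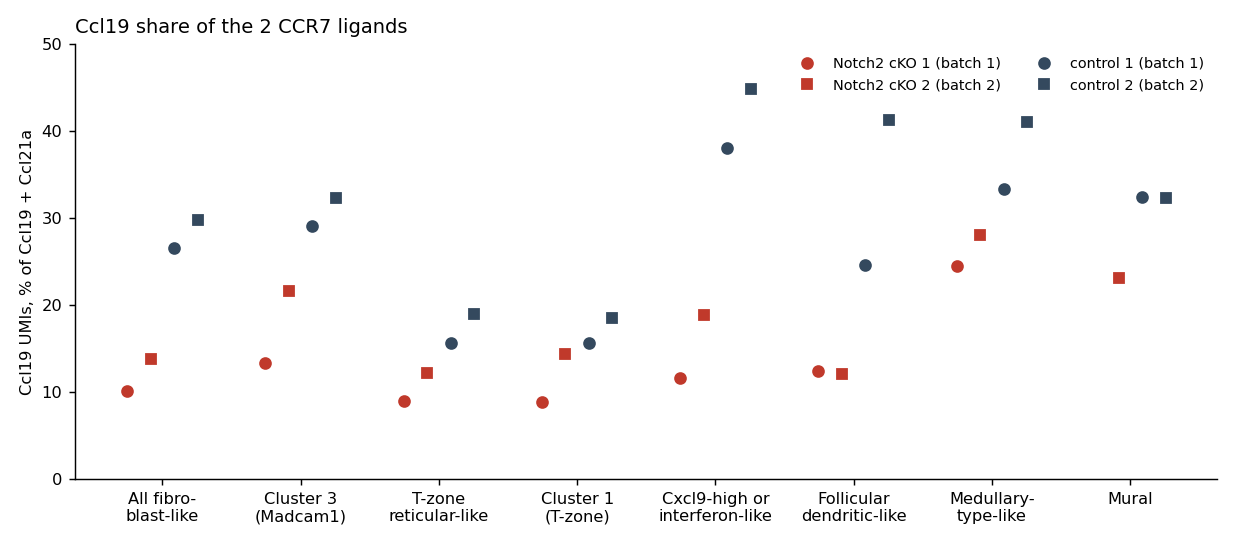
Ccl19 UMIs as a percentage of Ccl19 and Ccl21a UMIs together (vertical axis) by cell set, with 1 point per library, Notch2 cKO in red left of control in dark blue, circles for batch 1 and squares for batch 2. In all fibroblast-like cells the Notch2 cKO libraries lie at 10.1% and 13.9% and the controls at 26.6% and 29.8%, and no set that is drawn shows an overlap of the groups.

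The difference between classes in the genotype effect was tested with libraries as a block. For Ccl19 the log2 fold change in T-zone reticular-like cells was 0.96 ± 0.16 (SE) above that in all other fibroblast-like cells (adjusted p = 0.0027, edgeR interaction, with 5.52% of 15727 genes called), so the fitted difference was smaller inside the class. With no replicate block the value was 0.98 and the call was lost (adjusted p = 1.00), with 0 genes called. The other cells included cluster 3, whose share of fibroblast-like cells was lower in both Notch2 cKO libraries, so a difference in cluster mix enters this value. With cluster 3 left out the difference was 0.25 ± 0.21 SE (adjusted p = 0.863), and with cluster 3 in the T-zone class it was -0.69 ± 0.22 SE (adjusted p = 0.317). Against adventitial-like cells the difference was 0.34 ± 0.43 SE (adjusted p = 1, edgeR, with 1.98% of genes called). Ccl21a gave 0.56 ± 0.19 SE against all other fibroblast-like cells (adjusted p = 0.122).

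Other genes of the pathways around the ligands are given next, with edgeR log2 fold changes and their SE. Of the listed genes, 8 were called in all fibroblast-like cells and 15 in the T-zone class, where 1.55% and 8.52% of all genes were called. DESeq2 called 8 and 8 of these, beside 450 of 13662 and 457 of 13174 genes with an adjusted p. Without 1 library in turn, the only one of these calls kept was that of Cxcl14 in the T-zone class, in 1 of 4 cases, whereas the direction held in every case for 8 of 8 and 12 of 15. Among the 8 listed Notch targets, 6 were measured in all fibroblast-like cells and 4 of these fell (median log2 -1.75, beside 0.02 over all genes tested), where 0.633% of all genes fell. DESeq2 called the same 4. Hes1, a transcriptional repressor, was at 79.4 CPM and 51.4 CPM in Notch2 cKO 1 and 2, against 202 CPM and 205 CPM in controls 1 and 2 (-1.72 ± 0.24, adjusted p = 0.022). The receptor gene Notch3 had 23.3 CPM and 45.8 CPM in Notch2 cKO 1 and 2, against 147 CPM and 145 CPM in controls 1 and 2 (-2.20 ± 0.26, adjusted p = 0.013). Hey2 (-1.78) and Heyl (-2.19) fell too. Within the T-zone reticular-like class, 4 of 5 measured Notch targets fell (median -2.53), beside 3.89% of all genes, and DESeq2 called 3 of them. Notch2 itself passed the edgeR test (-1.002 ± 0.224, adjusted p = 2.37e-04) but not that of DESeq2 (adjusted p = 0.0645).

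In the CCR7 axis list, Ccr7, the receptor of both ligands, was near the floor in fibroblast-like cells, with 0.316 CPM and 0.29 CPM in Notch2 cKO 1 and 2, against 0.489 CPM and 0.268 CPM in controls 1 and 2. Ackr3, an atypical receptor that scavenges CXCL12, rose in T-zone reticular-like cells, where it had 78.8 CPM and 59.7 CPM in Notch2 cKO 1 and 2, against 21.6 CPM and 17.8 CPM in controls 1 and 2 (1.74 ± 0.23, adjusted p = 3.33e-12). It was the only 1 of the 6 measured members of the list to pass there, where 8.52% of all genes passed. In all fibroblast-like cells edgeR called 0 of 8 members, with 3 (beside 1917 of 17366 genes) at an unadjusted p under 0.05, and DESeq2 called 1. Ackr4, the atypical receptor that scavenges CCL19 and CCL21, lay at or under 1.02 CPM in fibroblast-like cells of every library.

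Of 13 T-zone reticular cell factors, Pdpn, which encodes podoplanin, and Il15 rose in T-zone reticular-like cells (0.73 ± 0.24 with adjusted p = 0.037, and 0.75 ± 0.26 with adjusted p = 0.048), beside 4.63% of all genes. DESeq2 called 0 of the 13 there. Over all fibroblast-like cells edgeR called 0 of the 13, with 1 (beside 1917 of 17366 genes) at an unadjusted p under 0.05, and DESeq2 called 1. Il7, a survival factor of naive T cells made by the same reticular cells, had 243 CPM and 197 CPM in Notch2 cKO 1 and 2, against 322 CPM and 235 CPM in controls 1 and 2 (-0.38 ± 0.27, adjusted p = 0.573). The median of the 13 was 0.15, beside 0.02 over all genes of that fit. The lymphotoxin and NF-kB list, whose members carry the signal that lymphoid stroma needs for homeostatic chemokines, had medians of 0.10 over 15 genes in all fibroblast-like cells and 0.06 over 14 in the T-zone class. None of them passed the edgeR test in either set, where 0 of 15 and 1 of 14 had an unadjusted p under 0.05, and DESeq2 called 0 and 0. Of all genes, 1917 of 17366 and 2449 of 14589 had such an unadjusted p in these 2 sets.

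Other chemokines moved in both directions. In the T-zone class, 3 of 7 measured homeostatic and lymphoid-stroma chemokines rose, beside 4.63% of all genes, and DESeq2 called the same 3. Cxcl14 had 84.6 CPM and 66.9 CPM in Notch2 cKO 1 and 2, against 0.843 CPM and 0.549 CPM in controls 1 and 2 (6.75 ± 0.34, adjusted p = 1.12e-80). Cx3cl1, a membrane-bound chemokine, had 104 CPM and 56.0 CPM in Notch2 cKO 1 and 2, against 21.6 CPM and 16.3 CPM in controls 1 and 2 (1.94 ± 0.23). Cxcl13, the B-cell zone chemokine, rose by 0.90 ± 0.30 (adjusted p = 0.034). Of 10 inflammatory chemokines, the eosinophil chemokine Ccl11 fell (-1.96 ± 0.28), with 158 CPM and 98.8 CPM in Notch2 cKO 1 and 2, against 478 CPM and 458 CPM in controls 1 and 2. Ccl8 also fell and Ccl5 rose there, both at under 8 CPM in every library, beside 3.89% of all genes lower and 4.63% higher. DESeq2 called Ccl11 of these 3, and neither Ccl8 (adjusted p = 0.289) nor Ccl5 (adjusted p = 0.878). In all fibroblast-like cells Cxcl2 (-1.41 ± 0.21) and Cxcl5 (-1.19 ± 0.19), neutrophil chemokines, were the members that passed, both lower, beside 0.633% of all genes. DESeq2 called both.

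Likeness of pattern over cell classes and clusters was ranked for each ligand. Over 52 sums of a class or cluster in a library with at least 50 cells, 39 of them fibroblast-like, log2(CPM + 1) of Ccl19 and Ccl21a correlated at Pearson's r = 0.902. Among 7018 genes with a mean of at least 20 CPM, Ccl21a was the gene most like Ccl19. Ifitm1 (0.880), Slc15a3 (0.866), Serpina10 (0.865), Dsc3 (0.862) and Stmn2 (0.862) came next. For Ccl21a the order was Stmn2 (0.929), Grem1 (0.926), Dsc3 (0.924), Ly6h (0.912), Clu (0.910) and Csf2rb2 (0.905), with Ccl19 at rank 7. Grem1 encodes a BMP antagonist and marks T-zone reticular cells. Sums of 1 library share their depth and may share free RNA, so these values describe likeness only.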

How the data were processed

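Per the matrix headers, the authors made the deposited UMI count matrices with Cell Ranger 5.0.1 (batch 1) and 7.1.0 (batch 2), whereas the submitters' processing notes name 5.0.1 and build mm10 for all 4 libraries. The deposited counts are raw. Barcodes with at least 500 genes and 1000 UMIs and at most 10% mitochondrial UMIs were kept. A doublet score called 3 barcodes in all at its automatic threshold, so the highest scores were removed at 0.8% per 1000 barcodes. Lineages were assigned by markers within each library. Fibroblast-like cells were clustered (2000 variable genes, 30 components, 20 neighbours, Harmony over batches, Leiden resolution 1) without the ligands, their copies and the 269 genes called between genotypes. To be named, a cluster needed 3 or more markers, and 50% or more of the list, at 30 CPM or higher and at 1.25 or more times the level of the median cluster. It was left unnamed where another class led its 10 leading genes, with or without the called genes. For every class but the T-zone class, at least 1 of its own markers also had to be among the 10 leading genes without the called genes. This naming rule was set after the data were seen.

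Sums of counts over the cells of a class in each library went into edgeR 4.0.16 (quasi-likelihood test, batch term, TMM scaling, Benjamini-Hochberg adjustment over all genes tested, threshold 0.05). DESeq2 1.42.0 was an alternative. Fitted fold changes are Notch2 cKO over control. The fits were tested on simulated counts. The batch is stated by the labels and pairs the libraries, and deviations from the group means correlated between groups within a batch (r = 0.788 over 8726 genes). Replicates are pools of mice, with 2 pools per group, and the pools of a group differ in their full genotype. With so few pools the edgeR p-values lean on a spread shared over genes. A small p therefore does not measure the spread of that gene between pools alone. Single values were compared by exact permutation. Intervals cover counting error only. For shares of cells, each cell was thinned to 1000 UMIs. No per-sample column was left unused.

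The members and lists were chosen with earlier results of these data known. Named genes are the ligands, their copies and Notch2, up to 4 passing members per list by adjusted p, and the 6 genes most like each ligand. Ccr7, Ackr4 and Il7 were named for their roles after their values were seen.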

Additional observations from a re-analysis of the deposited data

Results flagged for a closer look

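The genotype effect on Ccl19 differed between T-zone reticular-like cells and all other fibroblast-like cells by 0.96 ± 0.16 on the log2 scale (SE, adjusted p = 0.0027, edgeR interaction with libraries as a block), which is a difference between groups by a test of the difference itself. Without each library in turn the value lay between 0.79 and 1.13 and the call held. With no replicate block it was 0.98 and the call was lost (adjusted p = 1.00). It was 0.25 with cluster 3 left out and -0.69 with cluster 3 in the T-zone class, so it depends on where that unnamed cluster is placed. Cluster 3, part of the pooled other cells, made up 2.84% and 2.45% of fibroblast-like cells of Notch2 cKO 1 and 2. In controls 1 and 2 it made up 25.7% and 13.9%. The value therefore holds differences in cluster mix as well as within clusters. The parts of cluster mix, cell depth and free RNA in it were not tested.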

How the results depend on the processing

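Of 348 alternative values, 297 kept their direction and their side of the threshold. Ccl19 in all fibroblast-like cells was lower in Notch2 cKO in 13 of 13 alternatives (log2 -1.81 to -0.68, adjusted p 1.18e-04 to 1.00), and passed with DESeq2 (-1.44) and with no low-count filter (-1.40). In T-zone reticular-like cells it was lower in 19 of 19 (-1.82 to -0.50), and passed with DESeq2 (-0.93) and, chosen after the data were seen, with cluster 3 in the class (-1.82). In medullary-type-like cells it passed with DESeq2 (-1.10) and with no low-count filter (-1.10), and moved to -1.61 after subtraction of the mural level. The call in Cxcl9-high or interferon reticular-like cells was lost with the ligands kept in the clustering (-1.15), with no replicate block (-1.82, adjusted p = 0.586), without doublet removal (-0.99), at resolution 0.6 (-0.68), with random seed 3 (-0.93) and without each library (-2.49 to -1.36). In follicular dendritic-like cells Ccl19 ranged from -0.81 to 0.22 with a library left out, and in cluster 7 from -0.88 to 0.35.

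Ccl21a, which passed in no setting, changed sign in many. In all fibroblast-like cells it ranged from -0.20 (without control 2) to 0.70 (cluster 3 left out, chosen after the data were seen), with 0.41 as the highest value without a library, and was lower in Notch2 cKO in 2 of 13 alternatives. In adventitial-like cells it was 0.14 with the ligands kept, 0.14 without doublet removal, 0.13 at resolution 1.5, 0.14 with seed 2 and 0.13 with seed 3. In medullary-type-like cells it was 0.52 with Harmony over libraries, 0.77 with the ligands kept and 0.73 with seed 2. In T-zone reticular-like cells it was 0.039 at resolution 0.6 and 0.069 with seed 2, and -0.26 to 0.082 with a library left out. In Cxcl9-high or interferon reticular-like cells it ranged from -0.066 to 0.24 with a library left out. With a library left out it ranged from -0.083 to 0.12 in cluster 1, -0.031 to 0.16 in cluster 3, -0.17 to 0.76 in cluster 7 and -0.49 to 0.79 in cluster 8. Its share of fibroblast-like cells with a UMI turned to -1.70 percentage points at 2000 UMIs, -1.96 without thinning, -2.71 above the mural 95th percentile and ranged from -3.46 to 5.45 with a library left out. The difference between classes was 0.98 for Ccl19 with no replicate block (adjusted p = 1.00), 0.25 with cluster 3 left out and -0.69 with cluster 3 in the T-zone class, and for Ccl21a -0.44 and -0.70 in the same settings. The causes were not tested. The count of genes called in all fibroblast-like cells was 269, with 0 for no replicate block, 561 with RLE size factors, 756 with no low-count filter, 450 with DESeq2, 469 with a strict cell filter and 0 to 17 without a library. In the T-zone class it was 1243 (675 higher and 568 lower), with 0, 1219, 1253, 457, 658 and 0 to 13 in the same settings, and 811 with library totals (539 higher and 272 lower). Median depth was 2040 to 7243 UMIs per barcode, and without thinning the shares of T-zone reticular-like cells with a Ccl19 UMI overlapped between groups. The part of fibroblast-like cells placed in the T-zone class differed much less between groups with Harmony over libraries than with Harmony over batches.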
